A study of Mus musculus with 14 samples.

Results

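The genes examined here were the members of the Wnt pathway whose names mark them as ligands, receptors, antagonists or core signalling proteins, measured by RNA-SEQ in whole P2 mouse brains, 7 of them WT and 7 lacking Capn15 (KO). Members were the protein-coding genes of the deposited count table with a name of the Wnt, Fzd, Lrp5 or Lrp6, Sfrp, Frzb, Dkk, Wif1, Rspo, Lgr4 to Lgr6, Rnf43, Znrf3, Dvl, Axin, Apc, Ctnnb1, Lef1 or Tcf7 families, and 53 of the 17927 genes met that rule. They comprised 14 ligands, 12 receptors, 8 secreted antagonists, 8 genes of the R-spondin arm, 7 of the cytoplasmic relay and 4 nuclear factors. A further 8 protein-coding genes of the annotation carried such names and were not analysed here, namely Dkk1, Dkk4, Rspo4, Wnt1, Wnt10a, Wnt10b, Wnt3a and Wnt8a. Each library was the RNA of a whole frozen brain of an untreated pup, depleted of ribosomal RNA, and the mouse lines were made on C57BL/6J. The WT brains carried no Capn15 mutation by their label, and the KO brains were labelled as lacking Capn15, an intracellular cysteine protease. The methods describe a Capn15(lacZ-Neo) line and a floxed line, and the labels do not name the allele that the KO brains carried or a Cre driver. The column names placed the 14 brains in 6 litters, and KO and WT brains of the same replicate number always came from the same litter. The WT brains were 5 males and 2 females and the KO brains 3 males and 4 females, and 6 of the 7 pairs were of opposite sex, so that differences within pairs carry sex as well as genotype.

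Wnt ligands are lipid-bearing secreted proteins that bind a Frizzled receptor together with Lrp5 or Lrp6. In the canonical branch the bound receptors recruit Dishevelled and Axin, β-catenin escapes the destruction complex of Axin and Apc, and it then works with Lef1 and the Tcf factors on target genes, of which Axin2 and Lef1 are textbook examples. Secreted Sfrp, Wif1 and Dkk proteins bind ligands or co-receptors, while R-spondins bind Lgr receptors and hold back Rnf43 and Znrf3, the ubiquitin ligases that remove Frizzled from the cell surface. In the developing brain the pathway is known for signals from the cortical hem, for patterning of the thalamus and midbrain, for balancing neural progenitor division, and for the growth of brain vessels through Wnt7a and Wnt7b.

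Total counts per library lay between 37620954 and 70910163, and the lowest count of any member in any library was 11, so that no member reached the floor of 3 counts. Capn15 itself lay at 18.7 to 27.3 CPM (counts per 1000000 counts of the library, scaled with TMM factors) in WT brains with a median of 26.2, and at 12.2 to 20.2 CPM in KO brains with a median of 13.9. The ranges overlapped through litter F alone, in which the library labelled WT replicate 7 held 18.7 CPM and the library labelled KO replicate 7 held 20.2 CPM. Its log2 fold change was −0.81 (SE 0.118) with an adjusted p of 0.0747 by edgeR's quasi-likelihood test with Benjamini-Hochberg adjustment, and −0.98 with an adjusted p of 1.58e-06 without litter F. Whether these labels were exchanged cannot be told apart from other causes here. Values without litter F are given for the 5 members with an unadjusted p under 0.05 for genotype and for some, not all, of the others. Without it 0 members and 0 other pathway genes passed for genotype, and 19 members passed for litter. The share of all genes passing for litter in that fit is not given here, so the 19 are not read as a result about the members. The labels name neurons as the cell type, and neuronal markers summed to 5856 to 6266 CPM, but markers of radial glia, oligodendrocyte lineage, choroid plexus, meninges, vessels, microglia and blood were present in all 14 libraries. In such whole-brain RNA, fewer cells of a type and less RNA per cell cannot be told apart.

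The members spanned more than 3 orders of magnitude in level per length (FPKM, the TMM-scaled CPM divided by the exon length in kilobases), from 0.137 FPKM for Wnt16 to 200.8 FPKM for Ctnnb1 in WT brains, with a median of 2.41 FPKM. Of the 53 members, 37 lay above 1 FPKM and 9 above 10 FPKM. Among the ligands, Wnt7b led at 11.04 ± 1.81 FPKM (SD, n = 7 WT brains), followed by Wnt7a at 7.22 ± 0.402 FPKM and Wnt5a, a ligand of the β-catenin independent branch, at 2.93 ± 0.274 FPKM. Wnt4 at 2.71 ± 0.360 FPKM and Wnt3 at 2.41 ± 0.219 FPKM came next, and Wnt5a and Wnt4 differed by less than the SD of either. The remaining 9 ligands lay between 0.137 and 1.29 FPKM.

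Receptor levels were headed by Fzd3 at 21.8 ± 1.03 FPKM (SD, n = 7 WT brains), a Frizzled known for axon guidance and planar polarity, and by Fzd1 at 10.1 ± 1.23 FPKM. The co-receptor Lrp6, at 6.90 ± 0.488 FPKM, stood above its paralog Lrp5, at 1.55 ± 0.0894 FPKM. Fzd7, Fzd6 and Fzd8 lay between 2.71 and 3.01 FPKM with SDs of 0.266 to 0.330 FPKM and overlapping ranges. Dkk3, a member of the Dickkopf family that is not an established Lrp5/6 antagonist, was the highest of the secreted group at 24.4 ± 1.44 FPKM, above Sfrp1 at 11.5 ± 1.22 FPKM and Sfrp2 at 5.05 ± 0.349 FPKM, both of which bind Wnt ligands. In the R-spondin arm the receptor Lgr4 held 8.51 ± 0.231 FPKM, while its relative Lgr5, a stem cell marker of the gut, held 0.209 ± 0.0149 FPKM. Rspo3 and Znrf3 each lay at a mean of 2.33 to 2.34 FPKM.

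Ctnnb1, which encodes β-catenin, was followed in the cytoplasmic relay by Apc at 54.9 ± 4.50 FPKM (SD, n = 7 WT brains) and Dvl1 at 21.2 ± 1.82 FPKM. Axin1 reached 11.9 ± 1.06 FPKM and its feedback-regulated paralog Axin2 reached 6.54 ± 0.908 FPKM. Among the nuclear factors Tcf7l2, the Tcf factor known for its strong expression in the thalamus, was highest at 6.85 ± 0.676 FPKM, against 1.63 ± 0.141 FPKM for Tcf7 and 1.14 ± 0.102 FPKM for Lef1. Lengths were union exon lengths, and with the longest transcript of each gene the order of Tcf7 and Lef1 turned, Lef1 then standing at 2.75 FPKM and Tcf7 at 1.73 FPKM. The position within its role group stayed the same for 37 of the 53 members under that choice, but the level itself stayed within 1 SD for only 11 of 25 named members, with Tcf7l2 at 16.2 FPKM and, outside the named members, Lgr5 at 0.447 FPKM.

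**Figure D1:**
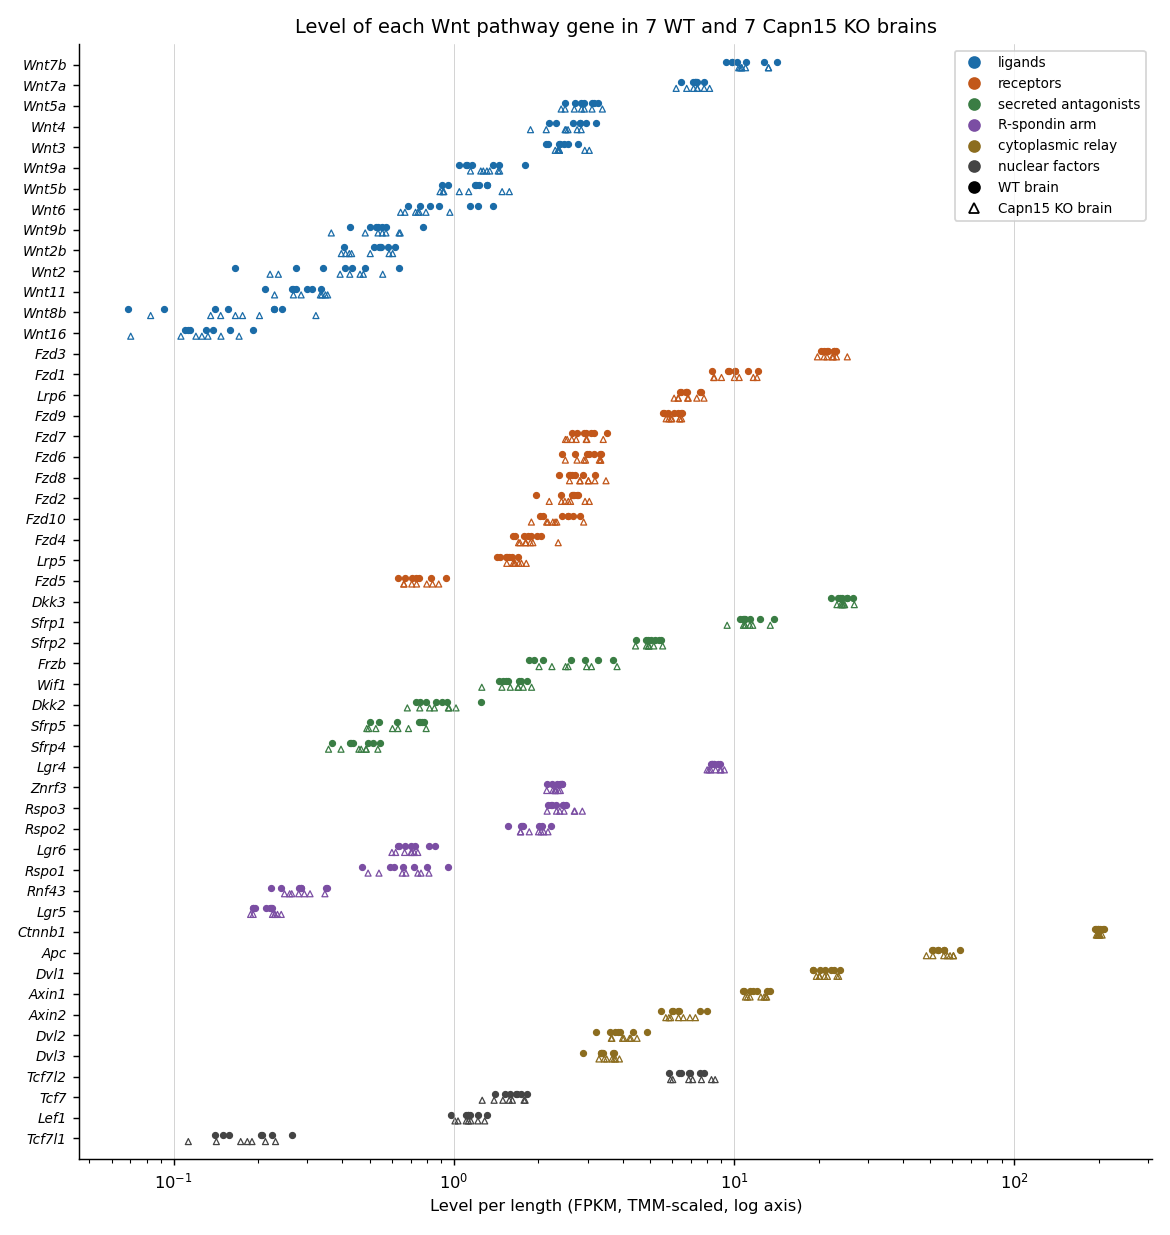
Level per length of the 53 Wnt pathway genes on a log axis in FPKM, 1 row per gene grouped by role, with filled circles for the 7 WT brains and open triangles for the 7 Capn15 KO brains. Ctnnb1 stands highest at 200.8 FPKM and Wnt16 lowest at 0.137 FPKM in the WT mean, and circles and triangles overlap for each gene.

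The comparison of Capn15 KO with WT brains asked which transcripts differ when the protease is lost. No member passed an adjusted p under 0.05 by edgeR's quasi-likelihood test with litter and sex in the design, where 0.00558% of all genes tested, a single gene, passed. The lowest adjusted p of a member was 0.746. By the likelihood ratio test, DESeq2 and limma-voom, 0 members passed as well, with 0.19%, 0.0948% and 0.00558% of all genes passing. Of the 53 members 26 were lower and 27 higher in KO brains, with a median log2 fold change of 0.0013 against 0.0015 over all genes. The WT and KO libraries overlapped for all 53 members, and 0.00558% of all genes did not overlap.

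The size of the differences that the data allow was small for most members. The 95% interval of the log2 fold change lay within ±0.25 for 36 members, within ±0.5 for 49 and within ±1 for 53. Ctnnb1 (chr9:120929216-120960507 on GRCm38, plus strand) lay at 1009 to 1081 CPM in WT brains with a median of 1035, and at 1018 to 1068 CPM in KO brains with a median of 1038. All KO brains lay inside the WT range. Its log2 fold change was −0.01 (SE 0.0248, 95% interval −0.06 to 0.05), with 2 genes of the other strand, Ulk4 and 4930593C16Rik, overlapping its locus. Because the strand setting of the counting was not stated, reads of overlapping genes on opposite strands cannot be told apart, which applied to 23 of the 53 members.

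**Figure D2:**
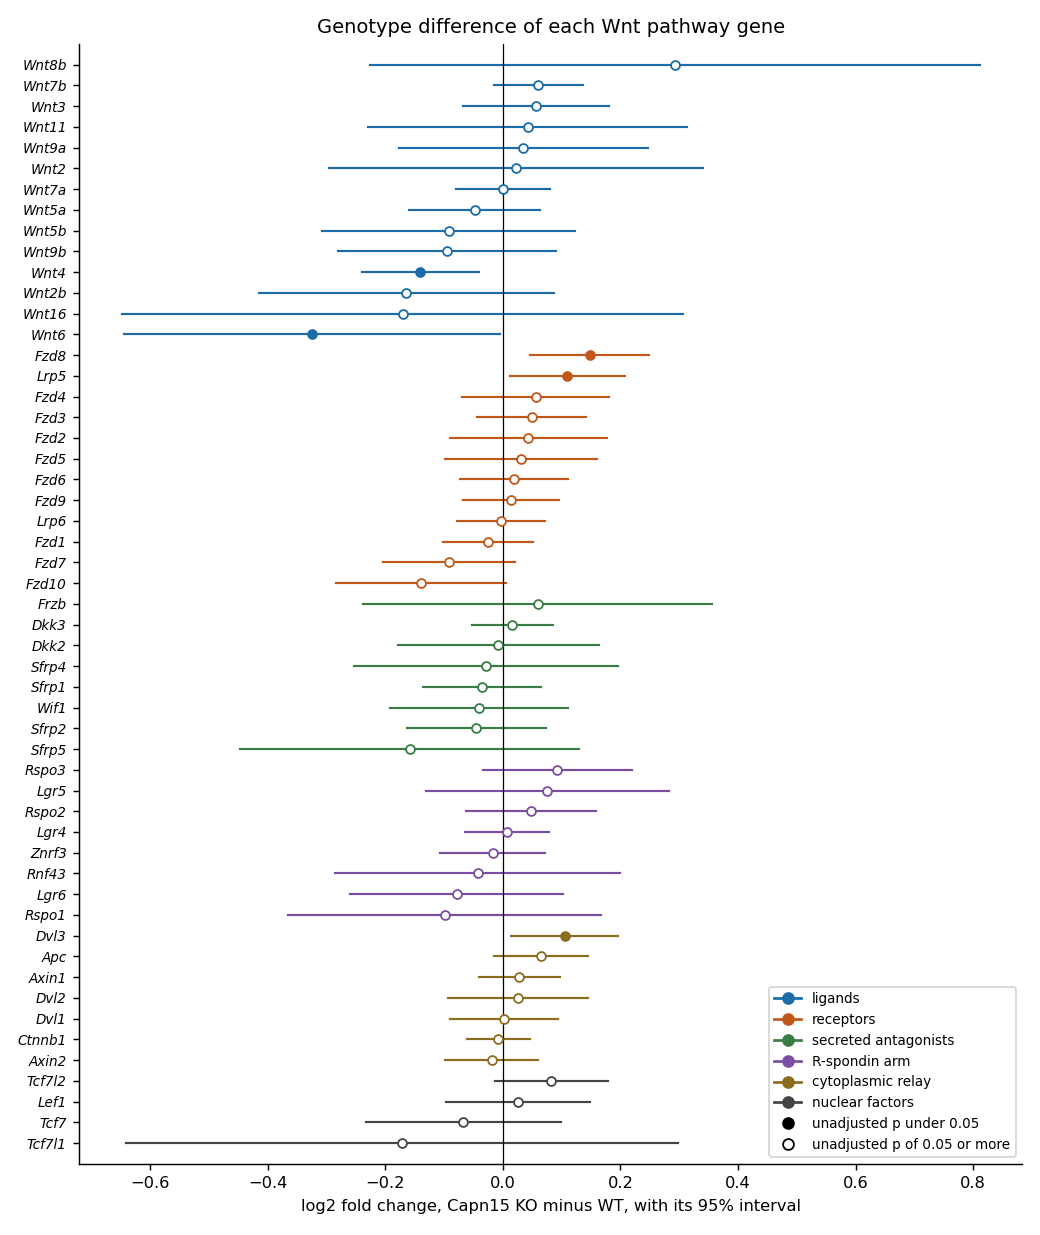
Log2 fold change of each Wnt pathway gene, Capn15 KO minus WT, with its 95% interval from edgeR's quasi-likelihood fit, grouped by role; filled points had an unadjusted p under 0.05. The 5 filled points are Wnt4 and Wnt6 on the lower side and Fzd8, Lrp5 and Dvl3 on the higher side, and no point passed after adjustment.

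At an unadjusted p under 0.05, 5 of the 53 members (9.43%) stood out, against 5.14% of all genes, and none of the 5 passed after adjustment. They were 2 ligands with lower values in KO brains, 2 receptors with higher values and 1 relay gene with higher values, while the secreted antagonists, the R-spondin arm and the nuclear factors held 0. Over all genes 2.26% were lower and 2.88% higher at that level.

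Wnt4 (chr4:137277489-137299726, plus strand) is a ligand known from kidney and gonad development and from the spinal cord floor plate. It lay at 9.13 to 13.5 CPM in WT brains with a median of 11.8, and at 7.87 to 11.9 CPM in KO brains with a median of 10.5. The groups overlapped widely, yet the KO brain lay below the WT brain of its number in 7 of 7 pairs, and in 6 of 6 outside litter F. The log2 fold change was −0.14 (SE 0.0462, 95% interval −0.24 to −0.04), with an unadjusted p of 0.00881 and an adjusted p of 0.749 by edgeR's quasi-likelihood test. Without litter F it was −0.13 with an unadjusted p of 0.0256 by the same test. The unadjusted p stayed under 0.05 in 14 of 14 fits that each left out 1 library. In litters other than B, leaving out either brain also removed its litter mate from the genotype comparison. These 14 fits were therefore not separate checks.

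Wnt6 (chr1:74771892-74785322, plus strand), a scarce ligand known from epithelia, lay at 1.51 to 3.02 CPM in WT brains with a median of 1.95, and at 1.41 to 2.12 CPM in KO brains with a median of 1.63. Only 3 WT brains, replicates 3, 4 and 6, lay above all KO brains. Its log2 fold change was −0.33 (SE 0.149, 95% interval −0.65 to −0.0049), with an unadjusted p of 0.0470 and an adjusted p of 0.960 by edgeR's quasi-likelihood test. The value rested on few brains, since its unadjusted p stayed under 0.05 in 5 of 14 fits that each left out 1 library. As for Wnt4, these fits were not separate checks. Without WT replicate 4, a removal that also took KO replicate 4 out of the genotype comparison, it was −0.16 with an unadjusted p of 0.390. Without litter F it was −0.43 with an unadjusted p of 0.0118 by the same test. The gene Gm29539 overlaps Wnt6 on the other strand.

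Fzd8, an intronless Frizzled, lay at 14.2 to 19.1 CPM in WT brains with a median of 15.8, and at 15.4 to 20.8 CPM in KO brains with a median of 18.0. The KO brain was the higher of its pair in 6 of 7 pairs, and the remaining pair differed by 0.00 on the log2 scale. Its log2 fold change was 0.15 (SE 0.0474, 95% interval 0.05 to 0.25), with an unadjusted p of 0.00778 and an adjusted p of 0.746 by edgeR's quasi-likelihood test. Without litter F the value was 0.15 with an unadjusted p of 0.0128 by the same test. The unadjusted p stayed under 0.05 in 12 of 14 fits that each left out 1 library, which were not separate checks, as for Wnt4. It was highest, at 0.0519, without KO replicate 4.

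Lrp5 (chr19:3584828-3686564, minus strand), the less abundant of the paired co-receptors, lay at 13.9 to 16.5 CPM in WT brains with a median of 15.1, and at 15.04 to 17.7 CPM in KO brains with a median of 16.1. KO replicates 2, 3 and 4 lay above all WT brains, and the remaining KO brains lay inside the WT range. Its log2 fold change was 0.11 (SE 0.0458), with an unadjusted p of 0.0310 and an adjusted p of 0.933 by edgeR's quasi-likelihood test. It was 0.07 with an unadjusted p of 0.230 without KO replicate 5. That removal also took WT replicate 5, its litter mate, out of the genotype comparison. Without litter F the Lrp5 value was 0.12 with an unadjusted p of 0.0398 by the same test. Lrp6 showed a log2 fold change of 0.00 (SE 0.0348).

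Dvl3 (chr16:20516982-20534010, plus strand), 1 of the 3 Dishevelled genes that pass the signal from Frizzled, lay at 18.5 to 23.98 CPM in WT brains with a median of 21.6, and at 21.1 to 25.0 CPM in KO brains with a median of 23.5. The lowest value of all was in the library labelled WT replicate 7, of litter F. Its log2 fold change was 0.10 (SE 0.0426), with an unadjusted p of 0.0276 and an adjusted p of 0.918 by edgeR's quasi-likelihood test, and it was 0.06 with an unadjusted p of 0.126 without litter F. The other Dishevelled genes lay at 0.00 (Dvl1, SE 0.0429) and 0.03 (Dvl2, SE 0.0556) on that log2 scale.

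**Figure D3:**
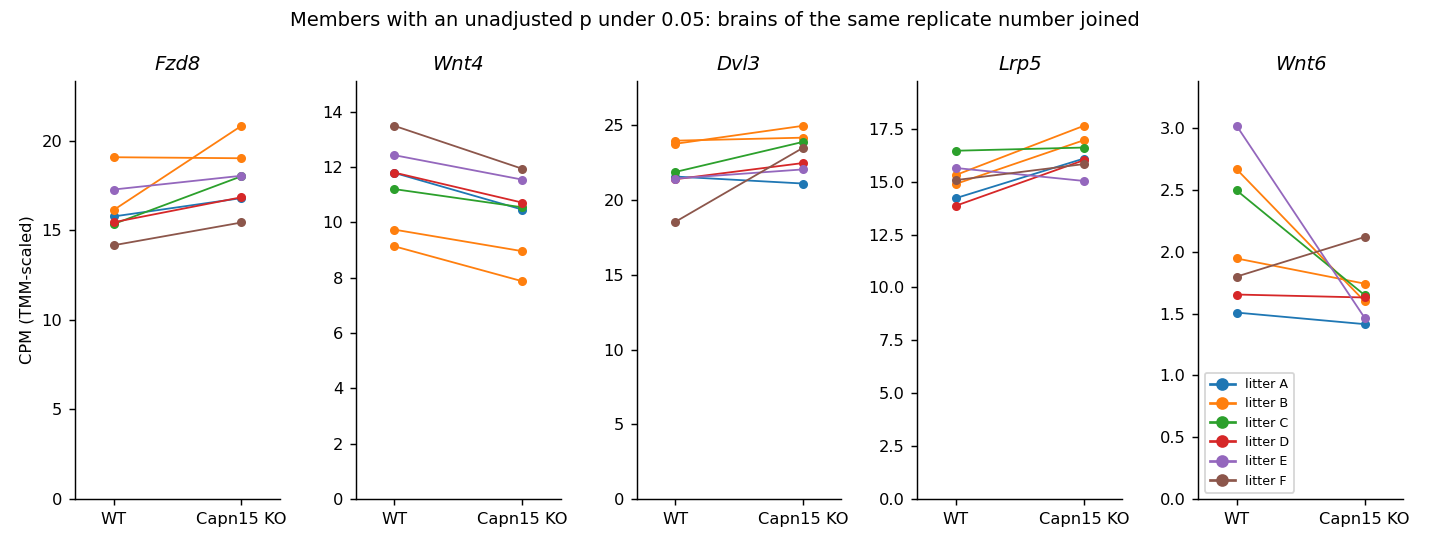
Levels in CPM of Fzd8, Wnt4, Dvl3, Lrp5 and Wnt6 in WT and Capn15 KO brains, with lines joining brains of the same replicate number and colours for the 6 litters. The lines of Wnt4 all descend, those of Fzd8 ascend in 6 of 7 pairs, and for Wnt6 the WT brains spread from 1.51 to 3.02 CPM while the KO brains lie between 1.41 and 2.12 CPM.

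The most abundant members showed values near 0 for genotype. Wnt7b, the leading ligand, lay at 45.9 to 69.8 CPM in WT brains with a median of 50.1, and at 50.8 to 65.0 CPM in KO brains with a median of 52.2. Its log2 fold change was 0.06 (SE 0.0352, 95% interval −0.02 to 0.14), and that of Wnt7a was 0.00 (SE 0.0371, 95% interval −0.08 to 0.08). Axin2, the feedback gene of the canonical branch, lay at 30.2 to 44.2 CPM in WT and 31.4 to 40.1 CPM in KO brains, with a log2 fold change of −0.02 (SE 0.0367, 95% interval −0.10 to 0.06). Lef1, the other textbook target among the members, gave 0.03 (SE 0.0571), and Tcf7 gave −0.07 (SE 0.0774). Tcf7l2 gave 0.08 (SE 0.0448) and, without litter F, 0.13 with an unadjusted p of 0.00153 and an adjusted p of 0.518 by edgeR's quasi-likelihood test. Without WT replicate 4, a removal that also took KO replicate 4 out of the genotype comparison, it was 0.03 with an unadjusted p of 0.545. Fzd3, Dkk3, Sfrp1, Lgr4 and Apc had log2 fold changes between −0.04 and 0.06. That of Apc was 0.11 both without WT replicate 5 and without KO replicate 5, with unadjusted p of 0.0156 and 0.0157 by the same test. It was 0.04 without litter F. The other named members lay in the same span or near it, at −0.05 for Wnt5a and Sfrp2, −0.03 for Fzd1, −0.02 for Znrf3, 0.02 for Fzd6 and 0.09 (SE 0.0587) for Rspo3. Without litter F, Wnt5a was at −0.01 and Sfrp2 at −0.09.

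Some marker genes also leaned with genotype, with 0 called. All 8 choroid plexus markers measured, Ttr among them, were lower in KO brains, 7 of them at an unadjusted p under 0.05 and 0 after adjustment by edgeR's quasi-likelihood test, and their sum lay at 756 to 996 CPM in WT and 620 to 867 CPM in KO brains, lower in 7 of 7 pairs and in 6 of 6 outside litter F. Lhx2 and Emx1, transcription factors of the forebrain, had higher values in KO brains, at log2 fold changes of 0.14 (SE 0.0378, unadjusted p 0.00193, adjusted p 0.470) and 0.11 (SE 0.0496, unadjusted p 0.0523, adjusted p 0.971) by edgeR's quasi-likelihood test. Across the 14 libraries, as deviations from the genotype means, Fzd8 ran with Lhx2 (Pearson r 0.85) and less closely with Emx1 (0.46), and Wnt4 ran against both (−0.66 and −0.39), a description in which brains of 1 litter are not independent points. Other lists gave values of like size, as Fzd8 ran against the oligodendrocyte lineage sum (Pearson r −0.83) and Wnt4 with it (0.83). With the choroid plexus sum, Fzd8 gave 0.56 and Wnt4 −0.32. Of the 8 meningeal markers 6 were lower in KO brains, 3 of them at an unadjusted p under 0.05 by the same test, with Ogn at −0.39 (SE 0.0735). The 4 hindbrain Hox genes all had negative log2 fold changes, with Hoxb3 at −0.29 (SE 0.0863) the only 1 at an unadjusted p under 0.05 by that test. Their sum lay at 8.02 to 14.5 CPM in WT and 5.37 to 15.3 CPM in KO brains, lower in only 3 of 7 pairs. All 3 thalamus markers were lower, with Gbx2 at −0.21 (SE 0.0698), and summed to 104 to 129 CPM in WT and 102 to 126 CPM in KO brains. Of the 6 vessel markers 3 were lower in KO brains, and their sum was lower in 4 of 7 pairs. Only 1 of them, Cldn5, had an unadjusted p under 0.05 by the same test, and it was higher at 0.10 (SE 0.0435). Pomc, the measured pituitary marker, lay at 0.681 to 1.04 CPM in WT and 0.834 to 1.33 CPM in KO brains. The part of any of these markers in the members' genotype values was not tested.

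Beyond the members, 52 other genes of the pathway were listed and all 52 were in the table. None passed for genotype by edgeR's quasi-likelihood test with Benjamini-Hochberg adjustment (lowest adjusted p 0.748), and 6 (11.5%) had an unadjusted p under 0.05, against 5.14% of all genes. Of these 2 were lower in KO brains, Wls, which carries Wnt ligands to the cell surface, at a log2 fold change of −0.12 (SE 0.0391), and Reck, a partner of the Wnt7 receptor complex on vessels, at −0.14 (SE 0.0571). The 4 with higher values were Celsr2, a planar polarity cadherin, at 0.13 (SE 0.0503), Dact1, a Dishevelled-binding protein, at 0.09 (SE 0.0348), the tankyrase Tnks, which marks Axin for removal, at 0.07 (SE 0.0290), and the destruction complex kinase Gsk3b at 0.06 (SE 0.0253). The median over the 52 genes was 0.01.

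Sex was compared in the same fit. No member passed for sex by edgeR's quasi-likelihood test, where 0.0669% of all genes passed, and 2 members had an unadjusted p under 0.05, against 5.04% of all genes. These were Wnt11, at a log2 difference, female minus male, of 0.30 (SE 0.137), and Apc, at −0.11 (SE 0.0402), both with an adjusted p of 0.927.

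Members passed the test for litter, which asked whether brains of different litters differed beyond genotype and sex. By edgeR's quasi-likelihood test with Benjamini-Hochberg adjustment, 18 of the 53 members (34.0%) differed between the 6 litters, against 29.6% of all genes, so that their share was close to that of the table as a whole. They were 6 ligands, 6 receptors, 2 secreted antagonists, 2 relay genes, 1 gene of the R-spondin arm and 1 nuclear factor. The ratio of the highest to the lowest litter mean among them ran from 1.17 to 2.66. Litter B, with 4 brains the only litter of more than 2, held the highest mean for 12 of the 18 and the lowest for Wnt2, Wnt4, Rspo2 and Dkk2, while Fzd6 and Wnt9b followed neither pattern.

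**Figure D4:**
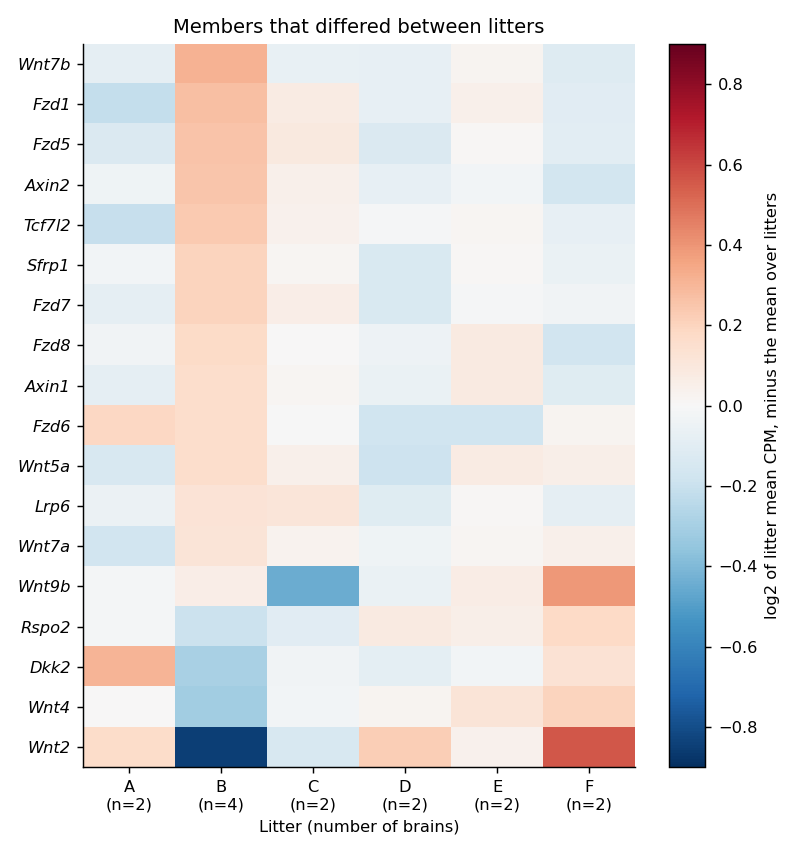
Litter means of the 18 members that differed between litters, as log2 of the mean CPM minus the mean over the 6 litters, with red for higher and blue for lower and the number of brains under each litter. Litter B is the reddest column for 12 genes and the bluest for Wnt2, Wnt4, Rspo2 and Dkk2.

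Wnt7b (chr15:85535437-85582473, minus strand) had the smallest p for litter, with an adjusted p of 0.000151 by edgeR's quasi-likelihood test. The 4 brains of litter B held 62.5 to 69.8 CPM, and the other 10 brains held 45.9 to 53.9 CPM with a median of 51.1. The ranges did not overlap, and both WT and both KO brains of litter B lay above all others. Axin2 (chr11:108920349-108950783, plus strand) lay at 38.3 to 44.2 CPM in litter B and at 30.2 to 36.3 CPM elsewhere (adjusted p 0.000820 by edgeR's quasi-likelihood test). Fzd1 (chr5:4753839-4758035, minus strand) lay at 46.9 to 50.9 CPM in litter B and at 34.9 to 43.7 CPM elsewhere (adjusted p 0.000232 by the same test).

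The ligands Wnt4 and Wnt2 went the opposite way. Wnt4 lay at 7.87 to 9.73 CPM in litter B and at 10.5 to 13.5 CPM in the other 10 brains (adjusted p 0.00129 by edgeR's quasi-likelihood test). Wnt2 (chr6:17988940-18030585, minus strand), a scarce ligand, lay at 0.374 to 0.618 CPM in litter B and at 0.766 to 1.43 CPM elsewhere, with means that differed most between litters B and F. Fzd6 instead had its high means in litters A and B, 16.1 and 15.8 CPM, and its low means in litters D and E, both 12.5 CPM (adjusted p 0.0031 by the same test).

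Litter B lay above all other libraries for 5 members, Wnt7b, Fzd1, Fzd5, Axin1 and Axin2 (9.43%), against 7.45% of all genes, and below them for 3, Wnt2, Wnt4 and Dkk2 (5.66%), against 9.77% of all genes. Of 12 marker sums, 3 separated the same 4 brains without overlap. Markers of the oligodendrocyte lineage summed to 281 to 308 CPM in litter B and 328 to 455 CPM elsewhere, microglial markers to 60.4 to 71.1 against 76.1 to 88.8 CPM, and the hindbrain Hox genes to 13.1 to 15.3 against 5.37 to 12.7 CPM. Red blood cell markers had a mean 2.09 times as high in litter B, with overlapping ranges, and the ranges of the other 8 sums overlapped as well. Without litter B, 0 members passed for litter over the remaining 5 litters by edgeR's quasi-likelihood test after adjustment, and 196 of all genes (1.09%) did. At an unadjusted p under 0.05 there were 9 members, against 16.7% of all genes, in place of 28 with litter B, against 41% of all genes. That fit lacked the 4 brains of litter B, so loss of power and loss of that litter cannot be told apart.

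Across the 14 libraries, as deviations from the genotype means and with litter shared between points, Wnt7b ran with Axin2 (Pearson r 0.90), Fzd1 with Tcf7l2 (0.94) and Wnt2 with Wnt4 (0.94). Wnt2 ran against both Axin2 (Pearson r −0.95) and Wnt7b (−0.94). The oligodendrocyte lineage sum ran with Wnt2 (Pearson r 0.91) and Wnt4 (0.83) and against Fzd1 (−0.93), Axin1 (−0.93), Axin2 (−0.92) and Wnt7b (−0.86), and the microglial sum ran against Wnt7b (−0.91). These pairs were chosen after their values were seen, and the scatter of Wnt7b and Axin2 shows litter B set apart from the rest.

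**Figure D5:**
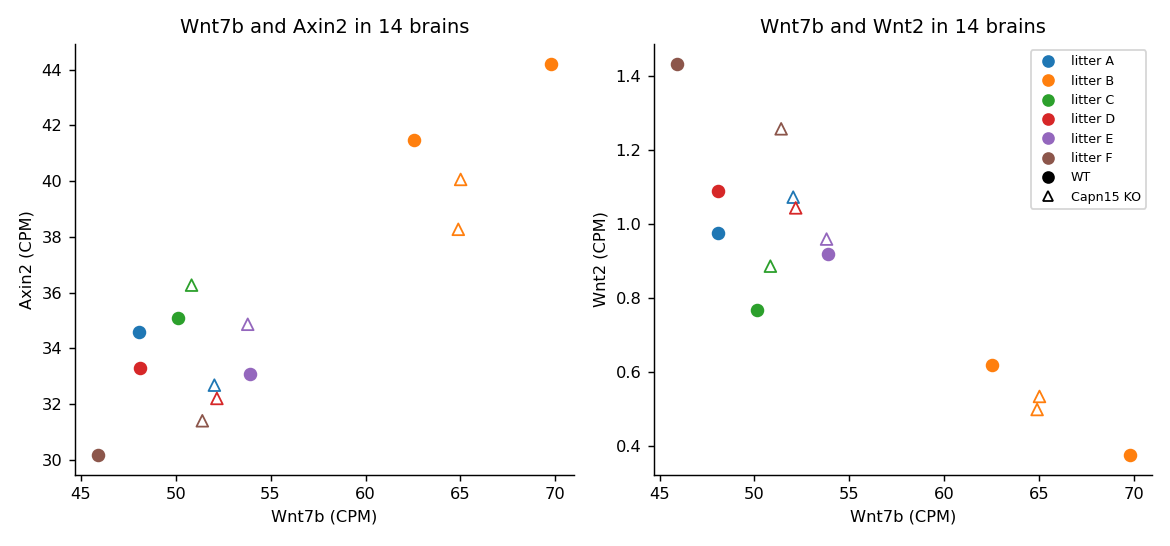
Axin2 (left) and Wnt2 (right) against Wnt7b in CPM in the 14 brains, with filled circles for WT, open triangles for Capn15 KO and colours for litters. The 4 brains of litter B lie at 62.5 to 69.8 CPM of Wnt7b with the highest Axin2 and the lowest Wnt2, apart from the other 10 brains.

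The promoter sequences of 3 members with higher means in litter B are shown, Axin2 as the classical target of the Lef1 and Tcf factors, Fzd1 as the receptor with the smallest p for litter, and Fzd7 as an example of a window with a match. RefSeq windows were found for 36 of the 53 members (46 windows), and the stretch searched was the 250 bases before each RefSeq start on GRCm38.p6. The letters searched were CTTTGAA, with its variants CTTTGAT, then CTTTGTA and also CTTTGTT, the forms bound by Lef1 and Tcf factors, on both strands. They stood in 14.8% of all 32851 windows and in 5 of the 46 member windows, those of Fzd7, Lef1, Tcf7l2, Wnt11 and Wnt5b. Each sequence is written 5′ to 3′ on the strand of its gene, and capitals mark the searched letters, which occur in Fzd7 on the opposite strand, beginning 130 bases before the start.
Axin2, chr11:108920099-108920348, plus strand: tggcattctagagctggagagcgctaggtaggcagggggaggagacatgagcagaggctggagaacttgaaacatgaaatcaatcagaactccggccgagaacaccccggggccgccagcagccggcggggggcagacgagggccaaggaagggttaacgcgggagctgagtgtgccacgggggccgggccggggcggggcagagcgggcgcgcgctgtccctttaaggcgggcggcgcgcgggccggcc
Fzd1, chr5:4758217-4758466, minus strand: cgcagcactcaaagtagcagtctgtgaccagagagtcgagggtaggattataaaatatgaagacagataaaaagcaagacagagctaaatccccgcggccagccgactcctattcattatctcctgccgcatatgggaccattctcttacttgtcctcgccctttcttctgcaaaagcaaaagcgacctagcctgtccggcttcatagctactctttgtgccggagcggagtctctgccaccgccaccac
Fzd7, chr1:59481897-59482146, plus strand: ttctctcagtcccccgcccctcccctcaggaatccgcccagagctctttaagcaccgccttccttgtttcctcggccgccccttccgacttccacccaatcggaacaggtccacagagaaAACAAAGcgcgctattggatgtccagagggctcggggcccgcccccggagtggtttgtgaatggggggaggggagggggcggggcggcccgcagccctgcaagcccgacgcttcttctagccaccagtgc

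The windows of Axin2 and Fzd1 held none of these letters in these 250 bases, and the window of Fzd7 held 1 match. A match is a string of letters and not a measured binding site. GC content was 69.2% in the Axin2 window, 51.2% in that of Fzd1 and 65.2% in that of Fzd7, against a median of 66.4% over the member windows.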

How the data were processed

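Whole P2 brains, 7 WT and 7 Capn15 KO, were compared. The authors trimmed reads with Trimmomatic, aligned them to GRCm38 with STAR and deposited unnormalized counts per gene, 1 column per brain, in a filtered table of 17927 genes. The paper names HTSeq-count, a ScriptSeq kit and HiSeq, while the labels name featureCounts, a TruSeq stranded kit and NovaSeq, and the strand setting and gene filter are not given in the sources used here. Genotype and replicate number came from the labels, litter and sex from the column names. Same-numbered brains share a litter, and the mean correlation of their deviations from the group means was 0.123 (−0.467 to 0.443 over 7 pairs) against −0.040 for brains of other litters. No library was taken as a copy of another, since the chi-square per gene of the closest libraries was 4.66. Replicates were separate brains.

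The test was edgeR 4.0.16's quasi-likelihood test in R 4.3.3 with TMM factors, all genes, litter and sex as covariates, and Benjamini-Hochberg adjustment at 0.05 over 17927 genes. FPKM divided TMM-scaled CPM by union exon length in GENCODE M21, and log2 CPM used a prior count of 2. Alternatives used DESeq2 1.42.0, limma 3.58.1, other scalings, filters and designs. Figures were drawn with matplotlib 3.10.9, and positions are on GRCm38. Depth limits cover counting error only, since PCR reads are not independent molecules. Members, pathway lists and markers were chosen with earlier results of these data known, and 1 marker gene, with its list's sum, is not reported here. Members named are Ctnnb1, the 3 highest per length in each role group, those with an unadjusted p under 0.05 for genotype, any called for genotype or sex, and the 5 with the smallest litter p; Wnt2, Wnt3, Wnt11, Lgr5, Axin1, Dvl2 and the genes in counts or promoters were named after their values were seen.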

Additional observations from a re-analysis of the deposited data

Results flagged for a closer look

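The 25 named members and Capn15 were examined for single brains that stood apart within their genotype, 52 groups of 7 brains in all, of which chance alone would give about 2.6. In 3 groups a brain stood apart, measured as its gap to the nearest brain over the whole range of log2 CPM. Apc was highest in WT replicate 1, at 1031 CPM against 901 CPM in the next brain (0.574 of the range). Capn15 was lowest among WT brains in the library labelled WT replicate 7, at 18.7 CPM against 25.0 CPM (0.761), and highest among KO brains in the library labelled KO replicate 7, at 20.2 CPM against 14.5 CPM (0.647).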

How the results depend on the processing

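No member passed for genotype, or for sex where it was in the design, under any of the 28 alternatives, which included the likelihood ratio test, DESeq2, limma-voom, other scalings and filters, other designs and the removal of each brain or of litter F. The removal of litter B was chosen after seeing the data. Of the 25 named members, 11 kept their sign in every setting. The number of all genes passing for genotype, 1 in the report, was 34 by the likelihood ratio test, 17 by DESeq2, 2 with genotype and litter, 7 without litter F, and 0 with library totals only, with the replicate block and without litter B; over the removal of single brains it ran from 0 to 7. Members with an unadjusted p under 0.05, 5 in the report, numbered 2 by DESeq2, 2 with genotype alone, 0 with genotype and sex and 4 to 6 over single removals; the replicate block gave 5, with Fzd10 in place of Wnt6, and changed no call of a member. Members differing between litters, 18 in the report, numbered 0 without litter B and 12 to 23 over single removals. The shares of all genes under single removals are not given here, so these counts are not read as results about the members. The cause of these changes was not tested. In litters other than B, removing either brain also removed its litter mate from the genotype comparison, so both removals gave nearly the same genotype fit.

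Signs turned for members near 0, none of which passed. Wnt7a (−0.0001 in the report) was 0.0012 with the CPM filter, 0.0095 with genotype alone, 0.0066 with genotype and litter, 0.0057 with genotype and sex and 0.00039 with the replicate block. Lef1 was −0.012 with genotype alone and −0.010 with genotype and litter. Dvl1 was −7.08e-05 by DESeq2, −0.0049 with upper-quartile factors, −0.00099 with library totals and −0.016 without litter F. Also without litter F, Fzd1 was 0.0022, Lrp6 0.0035 and Ctnnb1 0.0057. Without litter B, Fzd6 was −0.0032, Lrp6 0.0057, Dkk3 −0.0086, Lgr4 −0.030, Znrf3 0.0033 and Axin2 0.010. Over the removal of single brains, log2 fold changes ran for Wnt7a from −0.020 to 0.020, for Fzd1 from −0.066 to 0.0022, for Fzd3 from −0.0047 to 0.12, for Fzd6 from −0.025 to 0.053, for Lrp6 from −0.060 to 0.048, for Dkk3 from −0.0029 to 0.032, for Sfrp1 from −0.084 to 0.027, for Sfrp2 from −0.095 to 0.0034, for Lgr4 from −0.0063 to 0.025, for Znrf3 from −0.046 to 0.031, for Axin2 from −0.038 to 0.0066, for Ctnnb1 from −0.020 to 0.0057, for Dvl1 from −0.036 to 0.055 and for Lef1 from −0.016 to 0.041. Without a change of sign, Apc ran from 0.038 to 0.11 and Tcf7l2 from 0.032 to 0.13.

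Total counts and 7 brains per genotype left intervals of the log2 fold change within ±0.25 for 36 of 53 members, and wider ones for members of every role group but the cytoplasmic relay.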
